A study of Mus musculus with 16 samples.

Results

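The circadian clock genes were read in RNA-sequencing data of whole livers from 16 mice at 20 days of age. The members are the 10 rows of the expression table whose symbol is Arntl, Clock, Npas2, Nr1d1, Nr1d2, Dbp, Per1, Per2, Per3 or Cry1, out of 18209 rows with a gene identifier, and 10 of 10 passed the filter on low values that left 15781 genes tested. The 4 genotypes held 4 livers each. The mice of all 4 genotypes carried floxed alleles of Trsp, the gene of the selenocysteine transfer RNA, without which selenoproteins are not made. Trspfl/fl mice were the controls. In Trspfl/fl::AlbCre mice, Cre driven by the albumin promoter deletes Trsp. The study describes this knockout as specific to hepatocytes, and its extent in each type of liver cell was not measured here. Keap1C226SC613Shomo::Trspfl/fl mice were homozygous, in every tissue, for KEAP1 in which the cysteines Cys226 and Cys613 are replaced by serine. Keap1C226SC613Shomo::Trspfl/fl::AlbCre mice combined the substituted KEAP1 with the hepatocyte knockout. KEAP1 is the sensor protein that holds the transcription factor NRF2 at a low level until its cysteines are modified, and the crosses were made to ask what Cys226 and Cys613 contribute to the response to selenoprotein loss. The labels give male sex and the age for all animals. The hour at which each liver was taken is not given in the sources used here.

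The clock of a mammalian cell is a feedback loop of transcription. BMAL1, the product of Arntl, pairs with CLOCK or its paralog NPAS2 and binds E-boxes in the promoters of the Per and Cry genes, of Nr1d1 and Nr1d2 and of Dbp. PER and CRY proteins then repress BMAL1 and CLOCK, and the nuclear receptors REV-ERB alpha and REV-ERB beta, made from Nr1d1 and Nr1d2, repress Arntl, Clock and Npas2 through ROR elements. DBP is an output factor that binds D-boxes. In adult mouse liver the transcripts of Arntl and of Dbp are known to peak at nearly opposite times of day.

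The libraries held 11386716 to 19164094 reads each, recovered from the deposited values, and correlated across genes at r = 0.948 to 0.983 within a genotype. One library stood apart. Replicate 1 of Keap1C226SC613Shomo::Trspfl/fl::AlbCre had 28799 reads of Xist, where each of the other 15 had 22 to 50, and 2 reads over 4 Y-linked genes, where the others had 1830 to 3066, which goes against its label. The SDs, the relations with Arntl and the differences of Cry1 and Nr1d1 are also given without it. Of the hepatocyte markers, 6 of 6 were in the table and detected. Their summed normalized count ran from 1520465 to 1859703 in Trspfl/fl, from 1492317 to 1864364 in Trspfl/fl::AlbCre and from 1745052 to 2109937 in Keap1C226SC613Shomo::Trspfl/fl. In Keap1C226SC613Shomo::Trspfl/fl::AlbCre it was 846949 in replicate 1, the library that stood apart, and 1520383, 1171160 and 1659381 in replicates 2 to 4. The Trsp transcript itself was not analysed here. Levels below are log2 of the normalized count plus 4, the scale of the deposited table, and differences are log2 differences on that scale. Since the whole liver was sequenced, fewer cells of a type and less RNA per cell cannot be told apart.

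Livers of one genotype differed widely in Arntl. Its level in Trspfl/fl was 8.97, 8.60, 5.70 and 6.13 in replicates 1 to 4, and 7.96, 6.56, 8.55 and 8.13 in Trspfl/fl::AlbCre. In Keap1C226SC613Shomo::Trspfl/fl it was 7.41, 8.27, 7.25 and 8.57, and in Keap1C226SC613Shomo::Trspfl/fl::AlbCre 8.55, 8.26, 8.27 and 7.83. The controls thus held both the 2 highest and the 2 lowest of the 16 livers, and the levels of the other genotypes lay between them. In normalized counts the highest control exceeded the lowest 10.4-fold, with 51 to 522 reads behind the values. Clock, whose product is the standing partner of BMAL1, moved with a smaller amplitude, at 10.68, 10.52, 9.48 and 9.74 in the controls, a 2.29-fold range. Npas2, the paralog of Clock, had the widest range of the 3 activators. Its control levels were 7.98, 7.49, 3.27 and 3.93, a 44.2-fold range in normalized counts, from 6 to 261 reads. In Trspfl/fl::AlbCre the Npas2 levels were 4.34, 3.40, 6.44 and 6.34, so replicates 3 and 4 were the high ones there. In the 2 genotypes with substituted KEAP1, Npas2 ran from 4.66 to 7.03 without the knockout and from 4.09 to 6.82 with it.

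**Figure D1:**
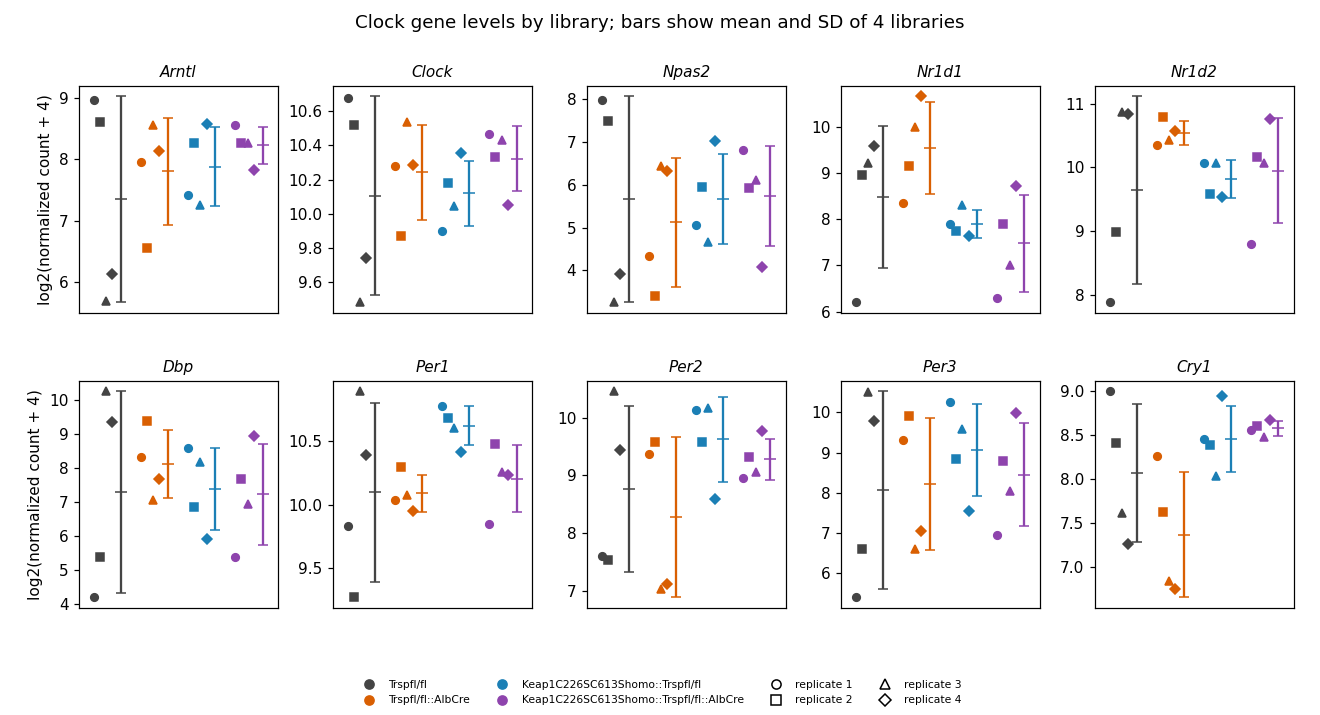
Each panel plots one clock gene, with a point for each of 16 livers by genotype (colour) and replicate (symbol) on the log2(normalized count + 4) axis, and a bar for the mean and SD of 4 livers. In Trspfl/fl, replicates 1 and 2 lie far from replicates 3 and 4 for Arntl, Npas2, Dbp and Per3, and the means of the 4 genotypes span less than 2 pooled SDs for 9 of the 10 genes.

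Dbp, the output factor, was lowest where Arntl was highest. The control levels of Dbp were 4.19, 5.38, 10.25 and 9.35, an 85.0-fold range in normalized counts (15 to 1294 reads), the widest of the 10 genes. The levels were 8.31, 9.37, 7.05 and 7.68 in Trspfl/fl::AlbCre, 8.57, 6.86, 8.16 and 5.92 in Keap1C226SC613Shomo::Trspfl/fl, and 5.37, 7.67, 6.93 and 8.93 in Keap1C226SC613Shomo::Trspfl/fl::AlbCre. The same 2 controls that were high in Arntl were the lowest of their genotype in Dbp, and the genotypes overlapped throughout.

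The 3 Per genes, which encode repressors of the loop, followed Dbp in the controls, with unequal amplitudes. Per3 was at 5.39, 6.60, 10.51 and 9.78 in Trspfl/fl, a 38.2-fold range in normalized counts. In Trspfl/fl::AlbCre, Per3 was at 9.32, 9.92, 6.60 and 7.04. Per3 then spanned 7.56 to 10.26 in Keap1C226SC613Shomo::Trspfl/fl and 6.95 to 9.99 in Keap1C226SC613Shomo::Trspfl/fl::AlbCre. The Trspfl/fl::AlbCre livers thus also fell into a high pair and a low pair, but there replicates 1 and 2 were the high ones. Per2 was at 7.61, 7.54, 10.46 and 9.44 in the controls and at 9.37, 9.59, 7.03 and 7.12 in Trspfl/fl::AlbCre, with the same pairs apart as for Per3. In Keap1C226SC613Shomo::Trspfl/fl, Per2 was at 10.14, 9.59, 10.17 and 8.60, and in Keap1C226SC613Shomo::Trspfl/fl::AlbCre at 8.96, 9.32, 9.05 and 9.77. Per1 varied least of the 3, at 9.83, 9.26, 10.90 and 10.39 in the controls, a 3.11-fold range. In the other genotypes, in the order above, it stayed within 9.95 to 10.29, 10.42 to 10.78 and 9.85 to 10.48.

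The REV-ERB genes did not share one pattern in every genotype, although their deviations from the genotype mean went together over the 16 livers (r = 0.779). Nr1d2 was at 7.88, 8.99, 10.88 and 10.85 in the controls, the order of Dbp, and between 10.36 and 10.80 in all 4 Trspfl/fl::AlbCre livers. It spanned 9.53 to 10.07 in Keap1C226SC613Shomo::Trspfl/fl and 8.79 to 10.76 in Keap1C226SC613Shomo::Trspfl/fl::AlbCre. Nr1d1 was at 6.20, 8.95, 9.21 and 9.58 in the controls, where only replicate 1 was low. In Trspfl/fl::AlbCre it was at 8.36, 9.16, 9.999 and 10.67. The last 2 of these, replicates 3 and 4, were the highest Nr1d1 levels of all 16 livers, in the livers that were also high in Arntl for their genotype and lowest of the 16 in Per2 and Cry1. Nr1d1 was at 7.91, 7.75, 8.32 and 7.64 in Keap1C226SC613Shomo::Trspfl/fl and at 6.30, 7.90, 7.01 and 8.72 in Keap1C226SC613Shomo::Trspfl/fl::AlbCre.

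Cry1, a repressor whose gene also answers to ROR elements, was at 9.003, 8.41, 7.62 and 7.26 in the controls. It was at 8.26, 7.63, 6.84 and 6.75 in Trspfl/fl::AlbCre, at 8.46, 8.39, 8.04 and 8.95 in Keap1C226SC613Shomo::Trspfl/fl, and at 8.56, 8.61, 8.48 and 8.68 in Keap1C226SC613Shomo::Trspfl/fl::AlbCre. The last genotype had the smallest spread of any of the 10 genes in any genotype (SD 0.0845, n = 4), a 1.15-fold range in normalized counts.

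**Figure D2:**
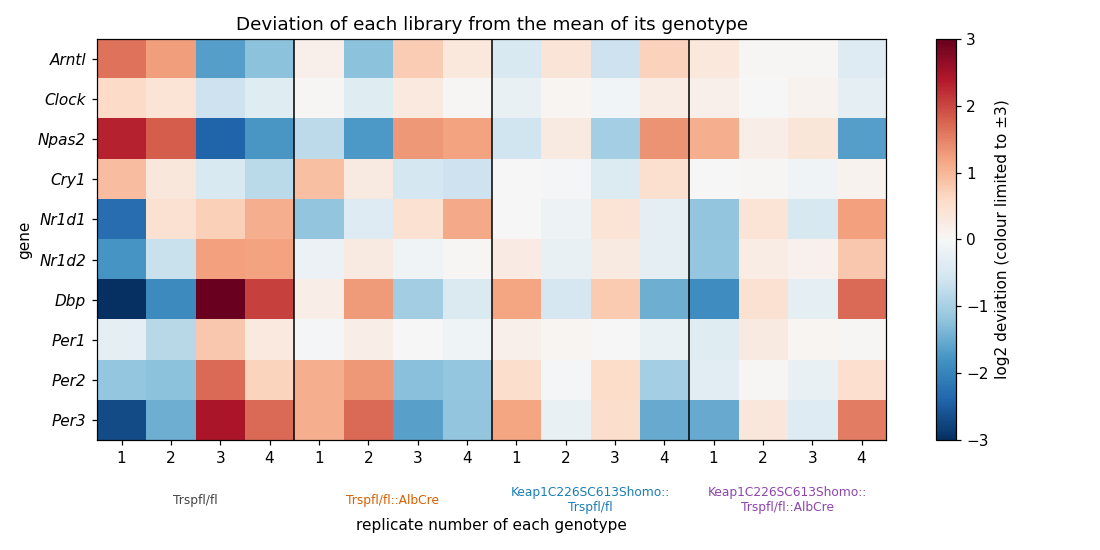
The colour of each cell gives the log2 deviation of one liver from the mean of its genotype (columns, 4 livers per genotype; rows, the 10 clock genes). In Trspfl/fl, replicates 1 and 2 are red for Arntl, Clock, Npas2 and Cry1 and blue for Dbp and the Per genes, and replicates 3 and 4 show the reverse, while in Trspfl/fl::AlbCre replicates 3 and 4 are high in Arntl and in Nr1d1 at once.

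The spread between livers of one genotype was summarised as the pooled SD, the SD around the 4 genotype means over the 16 livers. The median pooled SD of the 10 genes was 1.04 on the log2 scale, against 0.299 over the 15781 genes tested. It was 1.83 for Dbp, 1.71 for Per3 and 1.62 for Npas2, above 99.7%, 99.5% and 99.5% of genes tested. Per2 (1.08), Nr1d1 (1.07), Arntl (1.01) and Nr1d2 (0.86) lay above 97.7%, 97.6%, 97.0% and 95.01%. Cry1 (0.56), Per1 (0.39) and Clock (0.35) lay above 85.6%, 66.5% and 59.4%. Among genes whose mean level was within 0.5 log2 units, the share with a smaller SD ran from 85.8% for Clock to 99.9% for Dbp. For 10 of 10 genes the largest SD of the 4 genotypes was that of Trspfl/fl. The median SD of the 10 genes was 1.51 in Trspfl/fl, 0.926 in Trspfl/fl::AlbCre, 0.509 in Keap1C226SC613Shomo::Trspfl/fl and 0.595 in Keap1C226SC613Shomo::Trspfl/fl::AlbCre, while over all genes tested it was 0.267, 0.271, 0.217 and 0.267. These are descriptions with no test, since genes are not replicates and 4 livers fix an SD only loosely. Without replicate 1 of Keap1C226SC613Shomo::Trspfl/fl::AlbCre, the library that stood apart, the SD of Dbp in that genotype was 1.01 in place of 1.49, that of Nr1d2 0.371 in place of 0.827, that of Per1 0.136 in place of 0.263, and that of Per3 0.977 in place of 1.28. The median SD of the 10 genes in that genotype was then 0.367 in place of 0.595, below the 0.509 of Keap1C226SC613Shomo::Trspfl/fl, and over all genes tested 0.244 in place of 0.267. The median pooled SD of the 10 genes stayed at 1.04 over the 15 libraries left.

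**Figure D3:**
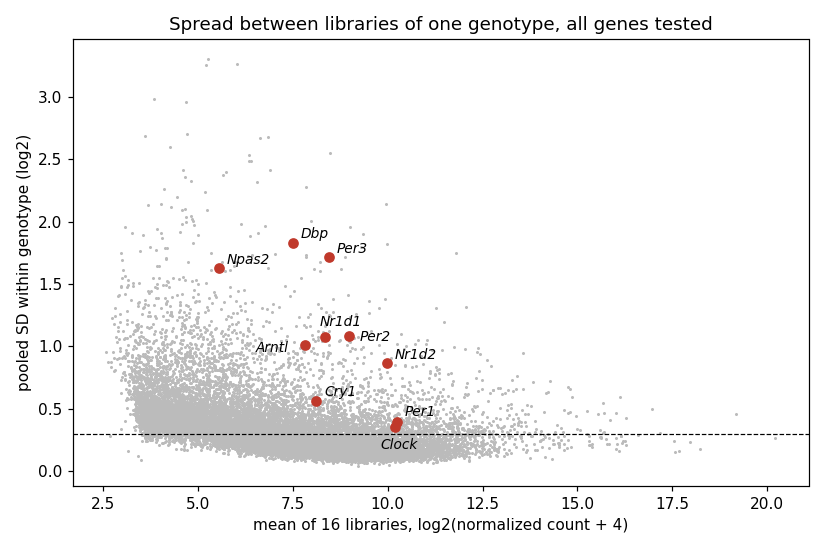
Each grey point is one of 15781 genes tested, with its mean level over 16 livers on the horizontal axis and its pooled within-genotype SD (log2) on the vertical axis; red points are the 10 clock genes and the dashed line is the median of 0.299. All 10 lie above the line, with Dbp, Per3 and Npas2 highest and Clock and Per1 nearest to it.

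Livers high in Arntl for their genotype were low in Dbp, in the 3 Per genes and in Nr1d2, which BMAL1 is known to activate. This was tested on deviations from the genotype mean over the 16 livers, with a two-sided exact permutation test that reassigns livers within a genotype (331776 arrangements) and Benjamini-Hochberg adjustment over 9 relations. The other activators went with Arntl: r was 0.974 for Clock (rho 0.956) and 0.944 for Npas2 (rho 0.944), with adjusted p = 4.88e-05 and 2.71e-05 by the exact permutation test. Clock deviated to the same side as Arntl in 16 of 16 livers. For Npas2 the unadjusted p of 3.01e-06 is the smallest that these permutations can give. Dbp went against Arntl, with r = -0.941 (rho -0.938, exact permutation p = 9.04e-06, adjusted p = 2.71e-05), and deviated to the other side in 14 of 16 livers. Per3 (r = -0.915, rho -0.915, adjusted p = 2.71e-05) and Per2 (r = -0.875, rho -0.885, adjusted p = 3.39e-05) did so in 14 of 16 livers each in the same exact permutation test. For Nr1d2, r was -0.850 and rho -0.903 (adjusted p = 0.000366, exact permutation), with 13 of 16 livers on the other side. For Per1, r was -0.800 and rho -0.768 (adjusted p = 0.0151, exact permutation), with 12 of 16. The adjusted p-values of rho for these 7 genes ran from 2.71e-05 to 0.0191, and their unadjusted p-values of r from 3.01e-06 to 0.0117.

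Nr1d1 and Cry1 did not pass the threshold of 0.05 in that test. For Nr1d1, r was -0.467 and rho -0.271, with exact permutation p = 0.212 and adjusted p = 0.212 for r and adjusted p = 0.446 for rho. For Cry1, r was 0.502 and rho 0.353, with exact permutation p = 0.195 and adjusted p = 0.212 for r and adjusted p = 0.338 for rho. The livers that deviated farthest in Arntl were replicate 3 (-1.65) and replicate 1 (1.62) of Trspfl/fl. Without these 2 livers, r was 0.955 for Clock, 0.914 for Npas2, -0.895 for Dbp, -0.863 for Per3, -0.832 for Per2, -0.747 for Nr1d2 and -0.779 for Per1, and it was -0.171 for Nr1d1 and 0.276 for Cry1. Over the 12 livers outside Trspfl/fl, a choice made after the data were seen, r was 0.924 for Clock, 0.877 for Npas2, -0.830 for Dbp, -0.833 for Per3, -0.810 for Per2 and -0.554 for Nr1d2, with adjusted p of at most 0.00445 by the exact permutation test. Per1 no longer passed over those 12 livers (r = -0.543, adjusted p = 0.0557), and Cry1 took the other sign (r = -0.0947, adjusted p = 0.882), by the exact permutation test. Without replicate 1 of Keap1C226SC613Shomo::Trspfl/fl::AlbCre, the library that stood apart, the same 7 genes passed, with r = 0.9745 for Clock, 0.949 for Npas2, -0.967 for Dbp, -0.930 for Per3, -0.874 for Per2, -0.901 for Nr1d2 and -0.811 for Per1 (adjusted p from 0.000109 to 0.0325, exact permutation). Nr1d1 (r = -0.462) and Cry1 (r = 0.506) did not pass. Other single livers decided some calls. Per1 did not pass without replicate 3 of Trspfl/fl (adjusted p = 0.0506, exact permutation) or without replicate 2 of Trspfl/fl::AlbCre (adjusted p = 0.0578, exact permutation), and Nr1d1 passed without the latter (r = -0.570, adjusted p = 0.0370, exact permutation).

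The summed levels of some marker lists of other liver cells also moved with the Arntl deviation. Across the 16 livers, r was 0.64 for 5 of 5 Kupffer cell markers, 0.48 for 5 of 5 erythroid markers and -0.57 for 5 of 5 stellate cell markers. It was -0.29 for 6 of 6 hepatocyte markers, -0.37 for 5 of 5 endothelial markers, -0.09 for 5 of 5 cholangiocyte markers and 0.157 for sequencing depth. The summed normalized count of the Kupffer markers ran from 3282 to 7473 in Trspfl/fl, from 4372 to 7508 in Trspfl/fl::AlbCre, from 4479 to 8844 in Keap1C226SC613Shomo::Trspfl/fl and from 2749 to 6768 in Keap1C226SC613Shomo::Trspfl/fl::AlbCre. In the same order of genotypes, the erythroid sum ran from 21279 to 42297, from 9920 to 22510, from 8667 to 16990 and from 10043 to 63877, and the stellate sum from 12300 to 20083, from 11874 to 13877, from 13127 to 15915 and from 11773 to 15280. The part of these cells in the relations with Arntl was not tested.

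**Figure D4:**
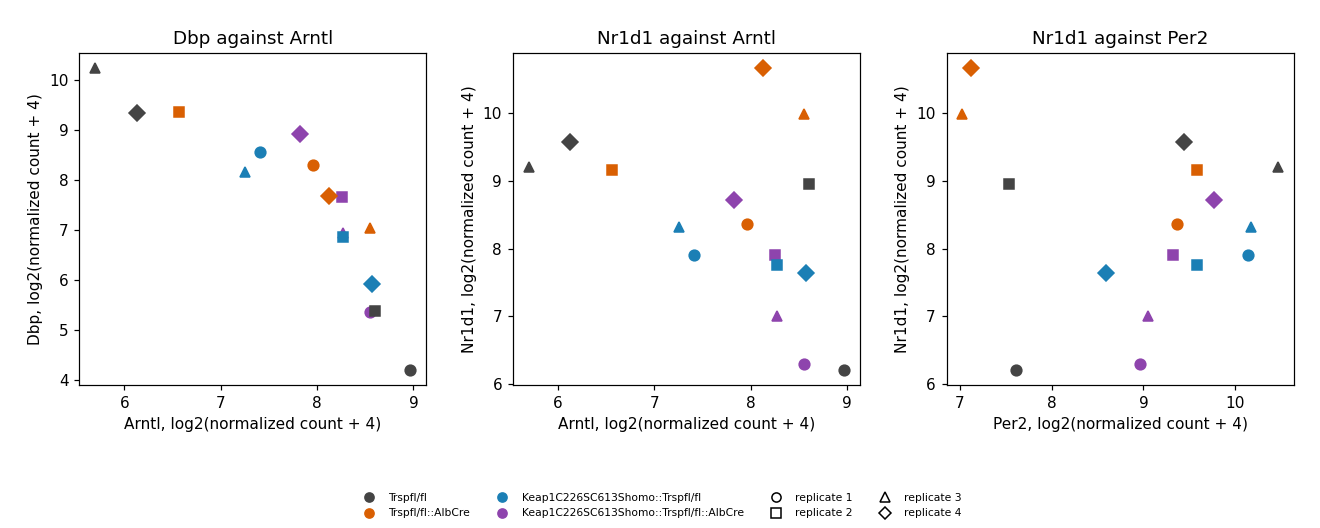
The 3 panels plot Dbp against Arntl, Nr1d1 against Arntl and Nr1d1 against Per2, each point being one of 16 livers (colour, genotype; symbol, replicate) and each axis log2(normalized count + 4). Dbp falls from 10.25 to 4.19 as Arntl goes from 5.70 to 8.97 across the livers, whereas replicates 3 and 4 of Trspfl/fl::AlbCre sit above the other livers in Nr1d1 at high Arntl and at the 2 lowest levels of Per2.

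To show the elements through which these genes are known to be linked, promoter windows from 250 bases before to 50 bases after the start site were taken from RefSeq (mouse build GRCm38.p6; the study's own quantification used a later GENCODE annotation). 9 of the 10 genes had a window, 13 windows in all. Both strands were searched for the E-box CACGTG, the D-boxes TTATGTAA and TTACGTAA, the ROR elements TAGGTCA and TGGGTCA, the CRE TGACGTCA and the core TGACNNNGC of the antioxidant response element bound by NRF2. Of 32851 windows in the table, 7.15% held the E-box, 0.938% and 0.119% the D-boxes, 2.61% and 3.98% the ROR elements, 1.79% the CRE and 12.4% the NRF2 core. A match is a description of letters, not of binding. Positions give the first base of the motif, with the start site as base 1. An E-box was present in 1 of the 2 windows of Per1, at position -166 on the plus strand of chromosome 11. The window of Cry1 held an E-box at position -60 on the minus strand of chromosome 10. These stretches upstream of the first exon are shown 5′ to 3′ on the strand of the gene, with the E-box in capitals, because these are the 2 members whose windows held the element.
Per1, chr11:69098699-69098948: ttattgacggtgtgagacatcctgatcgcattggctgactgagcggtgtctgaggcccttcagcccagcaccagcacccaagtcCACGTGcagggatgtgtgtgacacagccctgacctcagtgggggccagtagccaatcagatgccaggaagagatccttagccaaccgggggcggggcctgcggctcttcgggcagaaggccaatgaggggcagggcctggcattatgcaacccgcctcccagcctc
Cry1, chr10:85185055-85185304: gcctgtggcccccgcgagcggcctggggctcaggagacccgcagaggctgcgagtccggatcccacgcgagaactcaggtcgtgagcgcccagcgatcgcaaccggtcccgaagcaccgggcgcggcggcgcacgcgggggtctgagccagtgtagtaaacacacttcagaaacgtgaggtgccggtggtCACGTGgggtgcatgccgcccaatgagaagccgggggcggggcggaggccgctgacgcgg
The same window of Per1 and the window of Cry1 also held the NRF2 core at 2 positions each, and that of Nr1d2 at 1 position. Per3 lies on the minus strand of chromosome 4, and its window held the D-box TTATGTAA at positions -205 and -158, shown in capitals. It is printed because Per3 was among the 3 most variable members, together with Dbp, the D-box factor.
Per3, chr4:151044666-151044915: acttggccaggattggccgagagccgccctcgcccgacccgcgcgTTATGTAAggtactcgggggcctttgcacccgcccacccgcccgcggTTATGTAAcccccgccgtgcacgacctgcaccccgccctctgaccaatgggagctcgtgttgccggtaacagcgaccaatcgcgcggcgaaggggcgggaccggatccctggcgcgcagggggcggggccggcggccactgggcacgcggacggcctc
One of the 2 Arntl windows held the ROR element TAGGTCA, at position 31, on the plus strand of chromosome 7. The 30 bases around it are shown, with the element in capitals.
Arntl, chr7:113207530-113207559: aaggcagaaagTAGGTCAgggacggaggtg

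No difference between genotypes was called for any of the 10 genes at the thresholds of the study (absolute log2 fold change over 1 and adjusted p under 0.01, limma with Benjamini-Hochberg adjustment over 15781 genes). In Trspfl/fl::AlbCre against Trspfl/fl, 0 of 10 were called, against 0.215% of all genes tested, and 0 of 10 had an unadjusted p under 0.05, against 11%. In Keap1C226SC613Shomo::Trspfl/fl::AlbCre against Keap1C226SC613Shomo::Trspfl/fl, 0 of 10 were called (0.171% of all genes) and 0 of 10 had an unadjusted p under 0.05 (13.6%). In Keap1C226SC613Shomo::Trspfl/fl against Trspfl/fl, 0 of 10 were called (0.0127%) and 0 of 10 had an unadjusted p under 0.05 (9.07%). In Keap1C226SC613Shomo::Trspfl/fl::AlbCre against Trspfl/fl::AlbCre, 0 of 10 were called (0.57%), while 2 of 10, Nr1d1 and Cry1, had an unadjusted p under 0.05 (17.6%). For the interaction, the change of the knockout effect by substituted KEAP1, 0 of 10 were called (0.057%) and 0 of 10 had an unadjusted p under 0.05 (10.8%). The limma voom fit of the recovered reads also called 0 of 10 in all 5 comparisons. At an adjusted p under 0.05 with the same fold change, 0 of 10 were called in each comparison, against 0.38%, 0.475%, 0.0697%, 1.2% and 0.0951% of all genes in this order. These comparisons share genotypes and are not independent of one another.

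The precision for these genes was low. The median standard error of a log2 fold change between genotypes was 0.649 for the 10 genes and 0.209 for all genes tested, and for Dbp it was 1.14. The difference of Dbp between Trspfl/fl::AlbCre and Trspfl/fl, 0.81, thus had a 95% interval of -1.61 to 3.23, and its sign turned to -0.22 without replicate 1 of Trspfl/fl. Differences of the size of the study's threshold could therefore not be told from 0 for Dbp at this spread. For Clock and Per1 the standard errors were 0.225 and 0.25. Per1 was 0.53 higher in Keap1C226SC613Shomo::Trspfl/fl than in Trspfl/fl (interval -0.01 to 1.06, adjusted p = 0.553, limma).

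Cry1 and Nr1d1 had the lowest adjusted p-values, both in the comparison of the 2 knockout genotypes. Their deviations from the genotype mean went against each other over the 16 livers (r = -0.740), so their differences are not independent of one another. The Cry1 level was 8.58 ± 0.08 (SD, n = 4) in Keap1C226SC613Shomo::Trspfl/fl::AlbCre and 7.37 ± 0.71 in Trspfl/fl::AlbCre. The difference was 1.21 (SE 0.36, 95% interval 0.45 to 1.97, adjusted p = 0.0908, limma), which does not pass. The 4 livers of one genotype did not overlap those of the other, as was the case for 8.61% of genes tested. Cry1 was the only one of the 10 genes without overlap in any of the 4 pairs of genotypes compared; the share over all genes was 6.01%, 7.69% and 6.23% in the other 3 pairs. The Nr1d1 level was 7.48 ± 1.06 (SD, n = 4) in Keap1C226SC613Shomo::Trspfl/fl::AlbCre and 9.55 ± 1.01 in Trspfl/fl::AlbCre, with overlapping livers. The difference was -2.07 (SE 0.67, interval -3.49 to -0.64, adjusted p = 0.128, limma). Without replicate 1 of Keap1C226SC613Shomo::Trspfl/fl::AlbCre, the library that stood apart, the differences were 1.22 for Cry1 (adjusted p = 0.196, limma) and -1.67 for Nr1d1 (adjusted p = 0.320, limma). At an adjusted p under 0.05, Cry1 passed without replicate 1 of Trspfl/fl::AlbCre (1.51, adjusted p = 0.0450, limma). Nr1d1 did so without replicate 4 of Keap1C226SC613Shomo::Trspfl/fl::AlbCre (-2.48, adjusted p = 0.0437, limma) or without replicate 1 of Trspfl/fl (-2.07, adjusted p = 0.0435, limma). In livers with normal KEAP1 the knockout differed from the control by -0.70 for Cry1 (adjusted p = 0.493, limma) and 1.06 for Nr1d1 (adjusted p = 0.589, limma), and in livers with substituted KEAP1 by 0.12 and -0.42. The interaction was 0.83 for Cry1 (interval -0.25 to 1.90, adjusted p = 0.553, limma) and -1.48 for Nr1d1 (interval -3.49 to 0.53, adjusted p = 0.569, limma). Without replicate 1 of Trspfl/fl, the knockout difference of Nr1d1 with normal KEAP1 was 0.30 (adjusted p = 0.933, limma) and its interaction -0.72 (adjusted p = 0.791, limma). Without replicate 1 of Keap1C226SC613Shomo::Trspfl/fl::AlbCre, the interaction was -1.09 for Nr1d1 and 0.84 for Cry1.

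**Figure D5:**
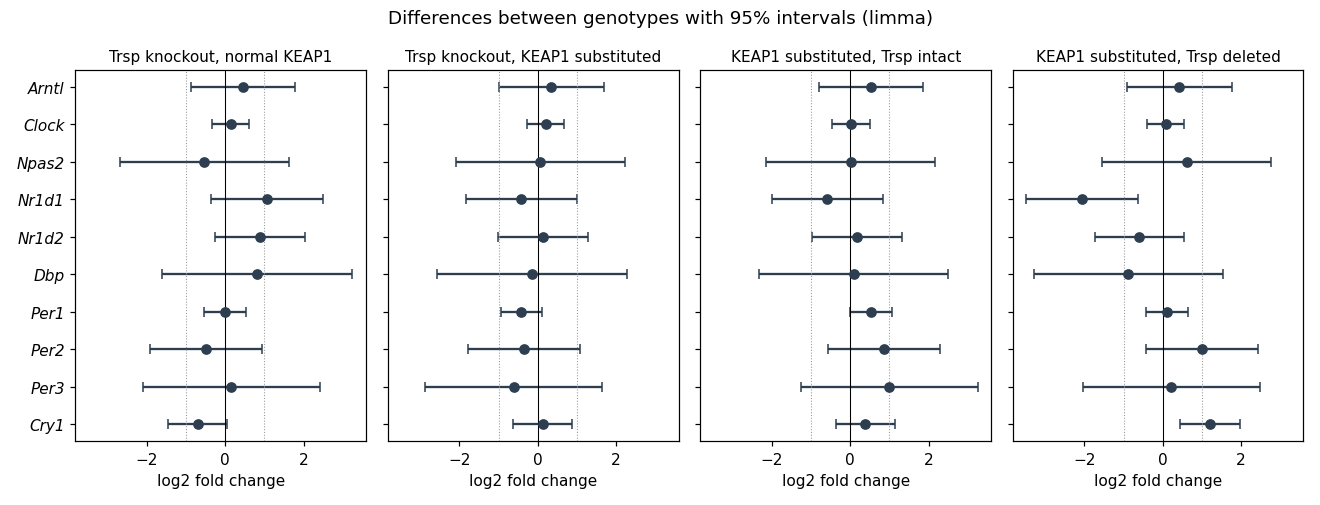
Each panel is one comparison of genotypes, with the log2 fold change of each clock gene on the horizontal axis as a point and its 95% interval from limma as a bar; dotted lines mark -1 and 1. The intervals of Nr1d1 and Cry1 in the rightmost panel (-3.49 to -0.64 and 0.45 to 1.97) are the only ones that leave out 0 before adjustment, and those of Dbp, Npas2 and Per3 are the widest.

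The order of the genotype means differed between the genes. Cry1 ran from Trspfl/fl::AlbCre (7.37) over Trspfl/fl (8.07) and Keap1C226SC613Shomo::Trspfl/fl (8.46) to Keap1C226SC613Shomo::Trspfl/fl::AlbCre (8.58). Nr1d1 had the opposite ends, from 7.48 in Keap1C226SC613Shomo::Trspfl/fl::AlbCre over 7.90 in Keap1C226SC613Shomo::Trspfl/fl and 8.49 in Trspfl/fl to 9.55 in Trspfl/fl::AlbCre. Per2 ran from 8.27 in Trspfl/fl::AlbCre to 9.62 in Keap1C226SC613Shomo::Trspfl/fl. Per1 ran from 10.09 in Trspfl/fl::AlbCre, next to 10.10 in Trspfl/fl, to 10.62 in Keap1C226SC613Shomo::Trspfl/fl. Arntl ran from 7.35 in Trspfl/fl to 8.22 in Keap1C226SC613Shomo::Trspfl/fl::AlbCre, and Clock from 10.11 to 10.32 between the same genotypes. The means of Dbp lay between 7.22 and 8.10, of Npas2 between 5.13 and 5.74, of Per3 between 8.07 and 9.07 and of Nr1d2 between 9.65 and 10.54. From lowest to highest genotype the means spanned 0.377 pooled SDs for Npas2 and 2.15 for Cry1, less than 1 pooled SD for 5 of the 10 genes and less than 2 for 9. No pair of neighbouring genotypes differed by more than 1 pooled SD except for Cry1, by 1.25 between Trspfl/fl::AlbCre and Trspfl/fl, and for Per1, by 1.07 between Keap1C226SC613Shomo::Trspfl/fl::AlbCre and Keap1C226SC613Shomo::Trspfl/fl.

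Other genes of the clock were read as a list of 20 loop partners, of which 19 were in the table and tested. They include the second cryptochrome Cry2, the ROR receptors, the kinases and the ubiquitin ligases that act on PER and CRY. None of the 19 was called in any of the 5 comparisons by limma, where 0.0127% to 0.57% of all genes were, and 1 of 19 had an unadjusted p under 0.05 in each, where 9.07% to 17.6% of all genes did. Their median pooled SD was 0.265, near the 0.299 of all genes tested. The most variable was Ciart, the repressor CHRONO, with a pooled SD of 1.67 and levels from 2 (no read) to 7.46. Nfil3, a repressor that competes with DBP at D-boxes, had a pooled SD of 0.716 and levels from 7.88 to 9.98, and Bhlhe41, a repressor at E-boxes, a pooled SD of 0.747 and levels from 2.27 to 4.84. The Arntl deviations went with those of Nfil3 (r = 0.765) and against those of Ciart (r = -0.954), and r was -0.355 for Bhlhe41. Of the 19 genes, 3 had r over 0.5 with Arntl, as did 14.2% of all other genes tested. Another 4 of 19 had r under -0.5, as did 11.6%. Ciart is shown because it had the lowest r with Arntl outside the members, among genes with a mean normalized count of at least 50. Its window, on the minus strand of chromosome 3, held 3 E-boxes at positions -116, -58 and -44, in capitals.
Ciart, chr3:95882229-95882478: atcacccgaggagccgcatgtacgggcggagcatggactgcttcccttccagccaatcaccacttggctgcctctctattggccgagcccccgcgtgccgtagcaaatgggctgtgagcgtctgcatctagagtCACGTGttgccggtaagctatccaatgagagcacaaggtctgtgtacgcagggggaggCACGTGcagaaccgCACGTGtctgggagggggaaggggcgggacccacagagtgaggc

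A list of 22 genes known as outputs of the liver clock varied more. Its median pooled SD was 0.774, and 0 of 22 were called in any of the 5 comparisons by limma (0.0127% to 0.57% of all genes). At an unadjusted p under 0.05 there were 1 of 22 for the knockout with normal KEAP1 (11% of all genes), 3 for the knockout with substituted KEAP1 (13.6%), 3 for substituted KEAP1 without the knockout (9.07%), 5 with it (17.6%) and 2 for the interaction (10.8%). Against the Arntl deviations over all 16 livers, Trspfl/fl included, 16 of 22 had r under -0.5, as did 11.6% of all other genes tested. Another 5 of 22 had r over 0.5, as did 14.2%. The gene lists were chosen with earlier results of these data known, so these shares are descriptions and were not tested. The 3 most variable were Nrg4, a secreted ligand of the EGF family (pooled SD 1.52, levels 2 (no read) to 6.93), Usp2, a deubiquitinase (1.27, levels 5.93 to 9.96), and Tef, a D-box factor related to DBP (1.10, levels 8.13 to 11.55). Their r with Arntl was -0.535, -0.909 and -0.927.

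Across all 15780 other genes tested, 23 had r over 0.9 with the Arntl deviations and 20 under -0.9, 0.272% in all. Of the 23, only 3 also had r over 0.9 over the 12 livers outside Trspfl/fl. Of the 20, 0 also had r under -0.9 over those 12 livers. These correlations describe which genes were most alike over the same 16 livers. Among genes with a mean normalized count of at least 50, the nearest outside the members were Clpx, the ATPase of a mitochondrial protease (r = 0.973), Tceal8 (0.966), Leprotl1 (0.945), Sumo3, a ubiquitin-like modifier (0.942), and Tubb2a, a tubulin (0.937). Over the 12 livers outside Trspfl/fl these had r = 0.946, 0.971, 0.830, 0.815 and 0.859. Among the most opposite were Ciart (-0.954), Stk35, a kinase (-0.940), Alpl, an alkaline phosphatase (-0.939), and Tef (-0.927), with r = -0.898, -0.875, -0.843 and -0.833 over the 12 livers. Clpx ranged from 10.18 to 12.14 and Tubb2a from 8.42 to 11.77. Tubb2a and Tef are also on the list of clock outputs above, and Ciart is on the list of loop partners.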

How the data were processed

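Livers of 16 mice, 4 per genotype, were assigned to genotypes and replicate numbers by their labels. Per the study's methods, the authors depleted ribosomal RNA, made directional libraries, quantified reads with Salmon on GENCODE mouse transcripts and used the iDEP platform. The deposited table holds log2 values, log2(reads divided by a size factor, plus 4). At low values, 100% of values gave whole reads within 0.1, and these reads gave the depth. Of 18578 rows, 369 without a gene identifier (0.274% to 0.627% of reads) were left out. Testing needed a normalized count of 10 or more in 4 or more libraries.

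The log2 values were fitted with limma 3.58.1 in R 4.3.3 (a mean per genotype, all 16 libraries, trend, Benjamini-Hochberg adjustment). A gene was called where its absolute log2 fold change passed 1 with an adjusted p under 0.01. Deviations from genotype means were correlated with those of Arntl by exact permutation within genotypes (Python 3.11.15, scipy 1.17.1). Whether replicates came from separate litters is not given in the sources used here; p-values measure the spread between these livers. Alternatives covered the added constant, the filter, normalization, trend, limma voom, a replicate block and leaving out libraries. Scripts were tested on simulated data. The members and gene lists were chosen with earlier results of these data known. Genes named beyond the 10 members were the 3 with the largest pooled SD in each list, any list gene called, and the 5 with the highest and the 5 with the lowest r with Arntl; a gene among these and a marker list are not reported here.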

Additional observations from a re-analysis of the deposited data

How the results depend on the processing

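The number of the 10 clock genes called stayed 0 in all 5 comparisons, counted once per comparison and setting. This held for 44 counts from refits under other settings and for 10 counts at other thresholds. It also held for 80 counts from 16 fits, with a different library dropped in each. Counts from the same fit are not independent of one another. The pooled SDs moved by less than the SD of the 4 genotype SDs in 30 recomputations with another constant or quantile normalization. Of the relations with Arntl, Per1 did not pass over the 12 livers outside Trspfl/fl (r = -0.543), and Cry1 changed sign there (r = -0.0947). Leaving out one library gave r from -0.826 to -0.697 for Per1 and from -0.585 to -0.144 for Nr1d1, with calls changed as named in the report; the causes were not tested. The Dbp difference in the knockout with normal KEAP1 ran from -0.22 to 1.80, with -0.22 without replicate 1 of Trspfl/fl. Replicate numbers did not pair the livers: same-numbered livers correlated at -0.315 to 0.310 in their deviations over 24 pairs, 4 of them over 0.1, and 2 of 16 libraries correlated best with their own number. With the replicate block, 0 clock genes were called, and the adjusted p in limma was 0.0535 for Nr1d1 and 0.0745 for Cry1 between the 2 knockout genotypes.

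The count of all genes called moved by more than 1.5 times in some settings. For the knockout with substituted KEAP1 it was 27, and 14 with the block. For substituted KEAP1 without the knockout it was 2, and 1 by limma voom. For substituted KEAP1 with the knockout it was 90, and 46 when only those genotypes were fitted. For the interaction it was 9, and 5 with a constant of 0.5 or by limma voom. Leaving out one library gave 14 to 42, 1 to 5, 50 to 178 and 8 to 14 in this order, and 42, 178 and 14 were without replicate 4 of Keap1C226SC613Shomo::Trspfl/fl::AlbCre. Without its replicate 1, the library that stood apart, the 90 became 58. With 4 livers per genotype and these SDs, only large differences of the clock genes could have been called.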

Other observations

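Genes that respond to glucocorticoids, feeding or stress in liver were read as a further list of 21, since several of them also follow a daily rhythm. Their median pooled SD was 0.632, and 0 of 21 were called in any of the 5 comparisons by limma (0.0127% to 0.57% of all genes). At an unadjusted p under 0.05 there were 5 of 21 for the knockout with normal KEAP1 (11% of all genes), 4 for the knockout with substituted KEAP1 (13.6%), 1 for substituted KEAP1 without the knockout (9.07%), 4 with it (17.6%) and 3 for the interaction (10.8%). Against the Arntl deviations, 4 of 21 had r under -0.5 (11.6% of all genes) and 0 of 21 over 0.5 (14.2%). This list, too, was chosen with earlier results of these data known. The most variable were Fgf21, a hepatic hormone of fasting and stress (pooled SD 1.32, levels 2.32 to 8.04), Hspa1a, a heat shock chaperone (1.05, levels 4.14 to 7.63), and Mt2, a metallothionein (0.974, levels 7.94 to 12.49). Fgf21 was 2.94 higher in Keap1C226SC613Shomo::Trspfl/fl::AlbCre than in Keap1C226SC613Shomo::Trspfl/fl (SE 0.83, adjusted p = 0.119, limma), which does not pass. Against Trspfl/fl::AlbCre, Fgf21 was 2.31 higher in Keap1C226SC613Shomo::Trspfl/fl::AlbCre (SE 0.83, adjusted p = 0.161, limma), which does not pass either. Both differences include replicate 1 of Keap1C226SC613Shomo::Trspfl/fl::AlbCre, the library that stood apart. Hspa1a and Hspa1b are near-identical copies, so reads may have been split between them. The r of Mt2 with Arntl was -0.370 over 16 livers and 0.653 over the 12 outside Trspfl/fl.

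With the Arntl level as a covariate for all genes, a choice made after the data were seen, the number of genes called went from 34 to 46 in the knockout with normal KEAP1 (33 shared) and from 27 to 54 in the knockout with substituted KEAP1 (27 shared). It went from 2 to 14 for substituted KEAP1 without the knockout (2 shared), from 90 to 99 with the knockout (87 shared) and from 9 to 13 for the interaction (9 shared).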
